A study of Mus musculus with 9 samples.

Results

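Livers of F4MKO + FSTL1 mice were compared with livers of Flox mice across every gene with at least 10 counts in at least 3 of these 6 libraries. This rule kept 13863 of the 24008 genes in the count table, and 10145 genes were too low to be tested. The 6 libraries are 6 of the 9 in the study, 3 mice per group with 1 library per mouse, and the other 3 come from F4MKO mice. F4MKO mice lack the transcription factor IRF4 in skeletal muscle. F4MKO + FSTL1 mice carry the same deletion and also received, into the gastrocnemius muscle, an AAV8 vector that expresses follistatin-like 1 (FSTL1) under the muscle-specific MCK promoter. Flox mice are labelled by a wild-type genotype, and the labels name no vector for Flox or F4MKO, where the study's methods place AAV-GFP. All 9 mice were fed the same high fat, high carbohydrate diet, which induces nonalcoholic steatohepatitis (NASH). The 2 groups compared therefore share the diet and differ in both the muscle deletion and the vector, so these 6 libraries cannot tell the effects of the deletion and of FSTL1 apart. Values of the F4MKO libraries are given beside some of the genes, in the text or the figures, for that reason.

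FSTL1 is a secreted glycoprotein that muscle, among other tissues, releases into the blood. In NASH, hepatocytes store fat and are injured, macrophages gather and take up lipid, and stellate cells turn into myofibroblasts that lay down collagen. Injured livers also contain dividing cells, whose entry into and exit from mitosis is driven by cyclin B1 with the kinase CDK1 and by the anaphase-promoting complex.

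The deposited values are reads counted on genes. The totals ran from 22900737 to 23896946 counts in Flox libraries and from 20656976 to 22891868 in F4MKO + FSTL1 libraries, and mitochondrially encoded genes took between 5.54% and 6.81% of them. The labelled tissue showed its markers: all 31 hepatocyte markers in the table were tested, and their summed level was at least 136988 CPM (the count relative to the TMM-normalized library size) in each of the 6 libraries. On the first principal component of the 6 libraries, which held 37.7% of the variance, the Flox libraries lay at -15.7, -23.1 and -20.8 and the F4MKO + FSTL1 libraries at 23.2, 31.4 and 4.97. F4MKO + FSTL1 library 3 thus lay nearer to the Flox libraries than the other two of its group, and it was apart on the second component as well (-28.2). It also had the highest summed level of T and NK cell markers of the 6 libraries (22.7 CPM, against 9.13 and 9.99 in its group) and of erythroid markers (616 CPM, against 414 and 360). Irf4 itself is low in liver, at 5.84, 5.46 and 4.45 CPM in Flox and 0.468, 4.42 and 5.94 CPM in F4MKO + FSTL1. The low value of F4MKO + FSTL1 library 1 has no counterpart in the other libraries, and a deletion in muscle is not checked by liver RNA. The labels name neither the Cre line behind the deletion nor the age of the mice.

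Cyclin B1 (Ccnb1) was the 1 gene of 13863 that passed the test (0.00721%), with an adjusted p under 0.05 in edgeR's quasi-likelihood test and a fold change above 1.5. Its counts were 25, 56 and 43 in Flox livers and 3, 5 and 4 in F4MKO + FSTL1 livers, and the groups did not overlap. Ccnb1 fell by 3.16 on the log2 scale (SE 0.37, 95% interval -3.98 to -2.34, edgeR adjusted p = 0.0461), an 8.93-fold lower level. It passed the filter on low counts through the Flox libraries alone, so a gene at these low levels could be tested here because it was higher in Flox. Counting Ccnb1, 29 genes had an edgeR adjusted p under 0.06. With a fold change above 1.5, 142 genes had one under 0.1, of which 127 were lower and 15 higher. DESeq2, the tool of the study's methods, called 235 genes lower (1.7% of those tested) and 48 higher (0.346%) at the study's threshold. Among these were 138 of the 142, Ccnb1 included. Without F4MKO + FSTL1 library 3, edgeR called 106 genes, 82 lower and 24 higher.

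At an unadjusted p under 0.05, 1324 genes were lower (9.55%) and 530 higher (3.82%) in F4MKO + FSTL1 livers. The CPM of the 3 mice of each group did not overlap for 1560 lower genes (11.3%) and 946 higher genes (6.82%). For 8160 genes (58.9%) the 95% interval of the fold change lay wholly within 1.5-fold in either direction, and for 109 genes it lay wholly outside. The median log2 fold change over all tested genes was -0.01. The fitted change was beyond 1.5-fold for 1043 lower and 301 higher genes. In the following, the gene lists are described by how many members met these criteria. The percentages over all genes given above are the shares to read these counts against. A list with shares near them does not stand out. Genes are called higher or lower as values where they did not pass the edgeR test. Most genes named below were picked among genes without overlap at an unadjusted p under 0.05, so their lack of overlap follows from the choice.

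**Figure D1:**
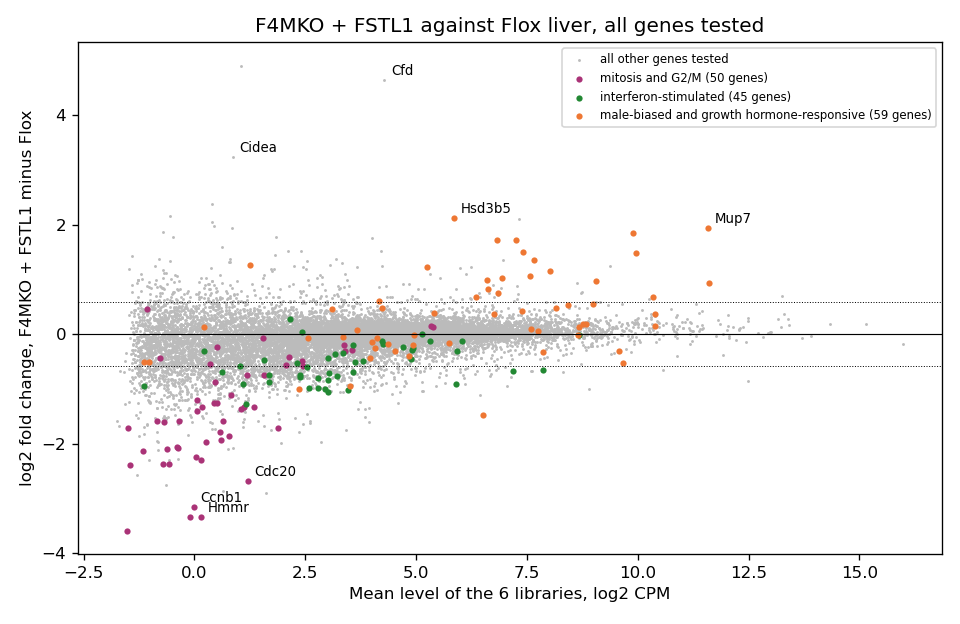
Log2 fold change of F4MKO + FSTL1 minus Flox against the mean level of the 6 libraries (log2 CPM) for 13863 genes, 1 point each, with dotted lines at a fold change of 1.5 and 3 gene lists in colour. Of the 50 mitosis genes 47 lie below 0, with 16 of the 50 tested through Flox alone, most interferon-stimulated genes lie below 0, and the genes of the male-biased and growth hormone-responsive list spread from -1.47 to 2.12.

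Genes of mitosis were lower in value in F4MKO + FSTL1 than in Flox livers. Of 57 genes on a list of mitosis and G2/M genes, 50 were tested, and 16 of these passed the filter through the Flox libraries alone (Ccnb1, Hmmr, Bub1, Cdkn3, Ckap2, Ckap2l and 10 others). Among the 34 members with at least 10 counts in a library of both groups, the median log2 fold change was -1.0, 24 were lower at an unadjusted p under 0.05, 23 were lower without overlap, and none was higher by either measure. DESeq2 called 15 of these 34 lower and none higher. Over all tested members, 40 were lower at an unadjusted p under 0.05, which became 24 of 33 without Flox library 1, 21 of 33 without Flox library 2 and 23 of 34 without Flox library 3, as fewer members passed the filter.

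The promoters of 4 of these genes are shown because CCAAT boxes and the cell cycle genes homology region are the promoter elements through which mitotic genes are known to be held off in resting cells and switched on in dividing ones. The 250 bases before a transcription start of each gene are given 5′ to 3′ on the gene's strand, from RefSeq (GRCm38.p6, the same assembly as mm10). Capitals mark CCAAT and TTTGAA, the letters searched for the homology region, on either strand (ATTGG and TTCAAA on the reverse). Other forms of the region were not searched, so a stretch without TTTGAA may still hold one. The 4 stretches are chr13:100786487-100786736 (minus strand) for Ccnb1, chr11:40733438-40733687 (minus strand) for Hmmr, chr4:118437344-118437593 (minus strand) for Cdc20 and chr7:135716380-135716629 (minus strand) for Mki67. The Hmmr gene is annotated up to base 40733464, so the last bases of its stretch, with the last CCAAT match, lie within the gene.
Ccnb1: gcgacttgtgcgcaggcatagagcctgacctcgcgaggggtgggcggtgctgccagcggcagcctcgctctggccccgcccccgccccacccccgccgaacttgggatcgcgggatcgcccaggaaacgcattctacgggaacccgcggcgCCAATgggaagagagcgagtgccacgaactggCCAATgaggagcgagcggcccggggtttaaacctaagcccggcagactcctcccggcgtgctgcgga
Hmmr: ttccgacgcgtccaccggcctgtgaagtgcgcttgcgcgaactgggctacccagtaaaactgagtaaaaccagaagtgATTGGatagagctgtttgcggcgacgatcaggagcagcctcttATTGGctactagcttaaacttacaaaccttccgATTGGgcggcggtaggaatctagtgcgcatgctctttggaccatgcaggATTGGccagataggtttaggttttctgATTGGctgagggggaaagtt
Cdc20: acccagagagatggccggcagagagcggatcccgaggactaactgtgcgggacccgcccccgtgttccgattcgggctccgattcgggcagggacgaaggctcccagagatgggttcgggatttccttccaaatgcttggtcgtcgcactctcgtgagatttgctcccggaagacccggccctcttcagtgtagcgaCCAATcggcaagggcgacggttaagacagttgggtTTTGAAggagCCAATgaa
Mki67: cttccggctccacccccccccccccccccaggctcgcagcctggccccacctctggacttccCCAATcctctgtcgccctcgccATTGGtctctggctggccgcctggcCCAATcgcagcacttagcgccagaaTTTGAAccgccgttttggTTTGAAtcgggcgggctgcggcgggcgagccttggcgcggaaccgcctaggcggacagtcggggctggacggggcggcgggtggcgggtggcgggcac
The Ccnb1 stretch holds 2 CCAAT matches, that of Hmmr 5, that of Cdc20 2 with 1 TTTGAA, and that of Mki67 3 with 2 TTTGAA, and no match overlaps another. A promoter was found for 41 of the 50 tested list members. A gene was counted if any of its promoters held the letters. CCAAT occurred in 32 of these (78%) and TTTGAA in 16 (39%). The shares were 40% and 13.6% of the 10418 genes with a promoter among the 13863 tested. Counted by single promoters, an unlike measure, they were 33.8% and 16% of all 32851 promoters of this length in the table. Both occurred in 15 of the 41 (36.6%), against 5.09% of the tested genes with a promoter and 5.55% of all single promoters. For 34 of the 44 tested genes of DNA replication and G1/S a promoter was found, with CCAAT in 58.8% and TTTGAA in 14.7%. Promoters were found for fewer than 80% of the tested genes and of this last list, so their shares are incomplete. These are matches of letters, and no binding was measured.

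Among regulators of mitotic entry and exit, Cdc20, the activator of the anaphase-promoting complex, had 2.05, 5.96 and 3.96 CPM in Flox, 7.75, 5.65 and 6.55 CPM in F4MKO and 0.515, 0.624 and 0.717 CPM in F4MKO + FSTL1 livers. The 3 F4MKO + FSTL1 mice were below every other mouse and close to one another. The log2 fold change against Flox was -2.69 (SE 0.38, edgeR adjusted p = 0.0564, DESeq2 adjusted p = 4.69e-08). Ccnb1 itself had 1.11, 2.32 and 1.89 CPM in Flox, 3.77, 3.25 and 3.50 CPM in F4MKO and 0.140, 0.240 and 0.205 CPM in F4MKO + FSTL1 livers. The 3 groups did not overlap for Ccnb1, and F4MKO was the highest. The kinase gene Plk1 had 1.56, 2.81 and 1.37 CPM in Flox and 0.375, 0.528 and 0.563 CPM in F4MKO + FSTL1 (log2 fold change -1.97, SE 0.34, DESeq2 adjusted p = 0.000435). The phosphatase gene Cdkn3 had 16, 63 and 40 counts in Flox and 3, 2 and 5 in F4MKO + FSTL1, again without overlap.

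Genes of the spindle and its checkpoint were lower in the same libraries. Hmmr, which encodes a spindle-associated hyaluronan receptor, had 1.07, 2.98 and 1.98 CPM in Flox and 0.0937, 0.0961 and 0.410 CPM in F4MKO + FSTL1 (log2 fold change -3.33, SE 0.55, edgeR adjusted p = 0.0564). The checkpoint kinase gene Bub1 had 14, 19 and 12 counts in Flox and 0, 0 and 3 in F4MKO + FSTL1, which is at the limit of detection and gives no fold change. The log2 fold changes of Knstrn (a kinetochore protein) and Racgap1 (cytokinesis) were -2.07 and -1.93, and both genes were called lower by DESeq2 and had no overlap between groups. Those of Ckap2 and Ckap2l, which encode microtubule-associated proteins and, like Hmmr, passed the filter through Flox alone, were -2.31 and -2.24. Esco2, an acetyltransferase that establishes sister chromatid cohesion, had 2.76, 2.98 and 2.47 CPM in Flox and 0.281, 0.576 and 1.08 CPM in F4MKO + FSTL1 (log2 fold change -2.10, SE 0.33, edgeR adjusted p = 0.0564). Mki67, the common marker of cycling cells, had 3.57, 7.86 and 5.55 CPM in Flox and 1.64, 1.20 and 2.35 CPM in F4MKO + FSTL1 (log2 fold change -1.71, SE 0.32, DESeq2 adjusted p = 8.67e-05). Flox library 1 had the lowest level of its group for Ccnb1, Hmmr, Cdc20 and Mki67, and in each case it was still above the F4MKO + FSTL1 libraries. These levels are a few CPM in whole pieces of liver, and in bulk RNA fewer cells of a type and less RNA per cell cannot be told apart.

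**Figure D2:**
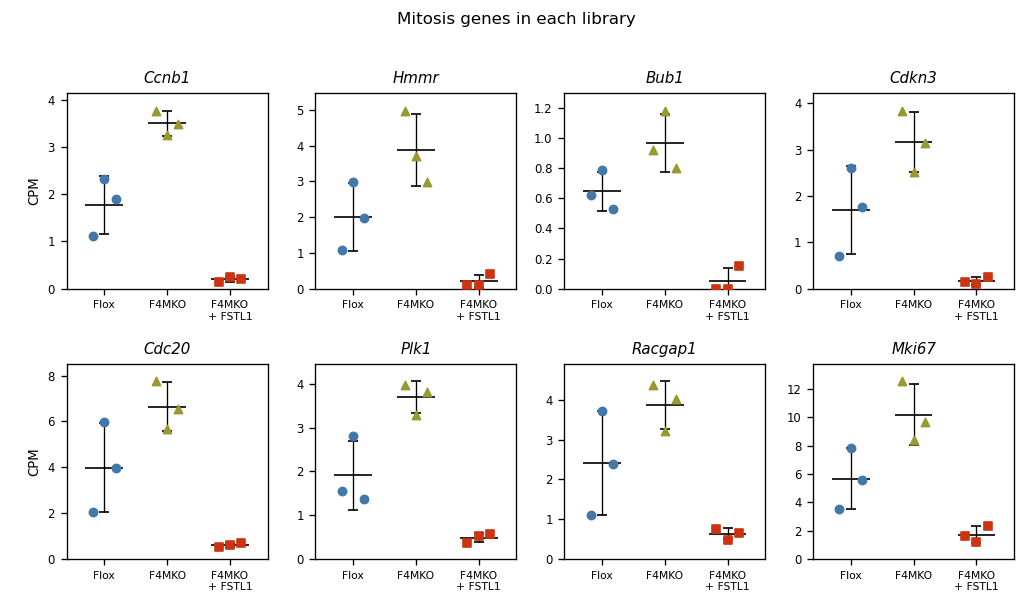
CPM of 8 mitosis genes in each of the 9 libraries, 1 point per mouse, with the mean as a line and the SD as a bar, and each axis starting at 0. In all 8 panels the 3 F4MKO + FSTL1 mice lie below the 3 Flox mice, and the F4MKO mean is the highest. The 8 genes were picked among genes without overlap between these groups.

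Genes of DNA replication and G1/S differed less. Of 47 list members 44 were tested, 1 of them, Gins2, through Flox alone. Among the other 43, 9 were lower and 1 higher at an unadjusted p under 0.05, the median log2 fold change was -0.16, and DESeq2 called 3 lower and 1 higher. With Gins2 10 were lower, and this count was 5 without Flox library 2 and 6 without Flox library 3, F4MKO + FSTL1 library 1 or F4MKO + FSTL1 library 2. Ccnd1, the G1 cyclin D1, had 13.8, 25.7 and 16.4 CPM in Flox, 62.0, 53.7 and 52.9 CPM in F4MKO and 9.60, 4.32 and 9.88 CPM in F4MKO + FSTL1 (log2 fold change -1.23, SE 0.29, DESeq2 adjusted p = 0.00243). The Flox and F4MKO + FSTL1 mice did not overlap, and the F4MKO mice were far above both. The transcription factor gene E2f2 had a log2 fold change of -1.09 (SE 0.23, DESeq2 adjusted p = 0.0361). Mcm5, a subunit of the replicative helicase, was at 1.96, 2.19 and 1.41 CPM in Flox and 0.937, 0.913 and 1.33 CPM in F4MKO + FSTL1, with no call by either tool.

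Collagen and matrix genes were lower in F4MKO + FSTL1 than in Flox livers by smaller factors. Among 22 collagen genes with at least 10 counts in both groups, the median log2 fold change was -0.55, 13 were lower and none higher at an unadjusted p under 0.05, and DESeq2 called 5 lower. The 6 tested fibrillar collagens were all lower in value, 4 of them without overlap, with a median of -0.77. Col3a1, a fibrillar collagen of scar tissue, had 44.0, 51.4 and 40.8 CPM in Flox, 130, 88.6 and 78.8 CPM in F4MKO and 32.4, 21.8 and 20.2 CPM in F4MKO + FSTL1 livers. The groups did not overlap (log2 fold change -0.87, SE 0.21, edgeR adjusted p = 0.105, DESeq2 adjusted p = 0.00747). Col1a2 had 30.9, 33.3 and 25.2 CPM in Flox and 23.1, 15.6 and 16.3 CPM in F4MKO + FSTL1 (log2 fold change -0.70, SE 0.19, DESeq2 adjusted p = 0.0374). For Col1a1 the groups did overlap, with 15.7, 18.7 and 10.5 CPM in Flox and 11.5, 7.20 and 6.19 CPM in F4MKO + FSTL1 (log2 fold change -0.85, SE 0.31), and neither tool called it. Col5a2, which joins type I fibrils, was called lower by DESeq2 (log2 fold change -0.85, SE 0.24). Over all 23 tested collagen genes 14 were lower at an unadjusted p under 0.05, and this count was 8 without Flox library 1, Flox library 2 or F4MKO + FSTL1 library 2 and 9 without F4MKO + FSTL1 library 3.

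Of 51 tested genes of matrix remodelling, 23 were lower and none higher at an unadjusted p under 0.05, 25 were lower without overlap, and the median log2 fold change was -0.49. DESeq2 called 4 of them lower. The count of 23 dropped to 10 without F4MKO + FSTL1 library 2 and to 15 without Flox library 2. The proteoglycan gene Lum, whose product organises collagen fibrils, had 22.8, 27.6 and 19.3 CPM in Flox and 12.2, 10.7 and 11.6 CPM in F4MKO + FSTL1 (log2 fold change -1.02, SE 0.22, DESeq2 adjusted p = 0.00206). The 3 F4MKO + FSTL1 mice were close to one another and below all Flox mice. The collagenase gene Mmp13, the elastase gene Mmp12 and the crosslinking enzyme gene Loxl1 had log2 fold changes of -0.93, -0.90 and -0.91, without overlap and without a call by either tool.

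The 19 tested markers of stellate cells and myofibroblasts had a median log2 fold change of -0.30, with 7 lower and none higher at an unadjusted p under 0.05 and 1 called by DESeq2. That gene was Vim, which encodes the intermediate filament vimentin (40.9, 38.3 and 39.6 CPM in Flox, 25.1, 18.1 and 31.1 CPM in F4MKO + FSTL1). Lrat, which stores retinol in quiescent stellate cells, and Pdgfra had the same log2 fold change of -0.57. Acta2, the marker of activated myofibroblasts, had 4.86, 3.31 and 4.58 CPM in Flox and 3.28, 2.16 and 5.84 CPM in F4MKO + FSTL1, and the groups overlapped (log2 fold change -0.18, 95% interval -0.89 to 0.53). The whole stellate list summed to 455, 464 and 447 CPM in Flox and 441, 341 and 351 CPM in F4MKO + FSTL1 libraries. F4MKO + FSTL1 library 1 was thus close to the Flox libraries. Without their most abundant member Ecm1, the stellate markers summed to between 314 and 332 CPM in Flox and between 226 and 284 CPM in F4MKO + FSTL1 libraries.

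Macrophage genes were lower across resident and lipid-associated markers. All 34 markers of macrophages and Kupffer cells in the table were tested, their median log2 fold change was -0.71, and 23 were lower and none higher at an unadjusted p under 0.05. For 21 the groups did not overlap, and DESeq2 called 12 lower. Adgre1, which encodes the macrophage receptor F4/80, had 21.6, 21.9 and 29.8 CPM in Flox, 25.3, 25.8 and 25.4 CPM in F4MKO and 13.0, 11.1 and 14.8 CPM in F4MKO + FSTL1 livers. Flox and F4MKO mice overlapped here, and the F4MKO + FSTL1 mice were below both (log2 fold change against Flox -0.91, SE 0.14, edgeR adjusted p = 0.0564, DESeq2 adjusted p = 5.04e-05). Among lipid-associated markers, Trem2, a lipid-sensing receptor, had 1.92, 1.78 and 2.07 CPM in Flox and 0.468, 0.913 and 0.512 CPM in F4MKO + FSTL1 (log2 fold change -1.60, SE 0.49, DESeq2 adjusted p = 0.0446). Gpnmb had 17.8, 12.5 and 25.4 CPM in Flox, 74.6, 72.4 and 35.3 CPM in F4MKO and 10.8, 8.98 and 8.81 CPM in F4MKO + FSTL1 (log2 fold change -0.96, SE 0.30). Lipoprotein lipase (Lpl) had 165, 105 and 84.3 CPM in Flox and 46.3, 56.0 and 61.3 CPM in F4MKO + FSTL1 (log2 fold change -1.12, SE 0.21, DESeq2 adjusted p = 0.000151). The lysosomal membrane gene Cd63 had a log2 fold change of -1.09 (SE 0.30) and was called lower by DESeq2. The whole list summed to 40421, 33055 and 37662 CPM in Flox and 41630, 41187 and 39727 CPM in F4MKO + FSTL1 libraries, and was thus not lower. Most of this sum was Apoe, which hepatocytes also express at a high level. Without Apoe the list summed to between 2883 and 3602 CPM in Flox and between 2251 and 2596 CPM in F4MKO + FSTL1 libraries. The resident Kupffer markers (7 tested) had a median of -0.76, and the lipid-associated markers (15 tested) one of -0.78.

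Of 45 tested interferon-stimulated genes, 26 were lower and none higher at an unadjusted p under 0.05, 23 were lower without overlap, and the median log2 fold change was -0.58. DESeq2 called 13 lower. Without F4MKO + FSTL1 library 2 the count of 26 was 17. The GTPase gene Tgtp1 had 2.50, 4.55 and 2.51 CPM in Flox and 1.12, 1.10 and 1.74 CPM in F4MKO + FSTL1 (log2 fold change -1.27, SE 0.34, DESeq2 adjusted p = 0.0287). Gbp6, a guanylate-binding protein gene, had 10.8, 13.1 and 9.07 CPM in Flox and 5.95, 5.09 and 4.76 CPM in F4MKO + FSTL1 (log2 fold change -1.06, SE 0.24, DESeq2 adjusted p = 0.00466). Usp18, which restrains interferon signalling, and the nucleic acid sensor gene Zbp1 had log2 fold changes of -1.02 (SE 0.26) and -1.01 (SE 0.25). These 4 genes were picked among members without overlap, so no F4MKO + FSTL1 mouse reached the level of any Flox mouse. The log2 fold changes of F4MKO over Flox for these 4 genes were 0.50, -0.01, 0.04 and 0.34.

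The 7 tested genes of MHC class II presentation had a median log2 fold change of -0.68, with 5 lower at an unadjusted p under 0.05 and 3 called lower by DESeq2. The invariant chain gene Cd74 had 263, 202 and 256 CPM in Flox, 459, 360 and 355 CPM in F4MKO and 162, 123 and 165 CPM in F4MKO + FSTL1 livers. The 3 groups did not overlap (log2 fold change against Flox -0.68, SE 0.16, DESeq2 adjusted p = 0.00650). Ciita, the master regulator of class II genes, had 3.57, 3.31 and 3.57 CPM in Flox and 1.78, 1.06 and 2.25 CPM in F4MKO + FSTL1 (log2 fold change -1.04, SE 0.28), and the protease gene Ctss had a log2 fold change of -0.68 (SE 0.18). Both were called lower by DESeq2, and H2-Aa (-0.72, SE 0.22) was not.

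Among 34 chemokine and cytokine genes with at least 10 counts in both groups, 16 were lower and none higher at an unadjusted p under 0.05, with a median log2 fold change of -0.50 and 1 call by DESeq2. Over all 36 tested 18 were lower, and this count was 11 without Flox library 1 or Flox library 3 and 9 without F4MKO + FSTL1 library 2. The chemokine genes Ccl3, Ccl2, Ccl4 and Ccl22 had log2 fold changes between -1.52 and -1.12 at levels of at most 3.12 CPM in any of the 6 libraries, neither tool called them, and Ccl3 and Ccl22 passed the filter through Flox alone. Il1b overlapped between groups, at 7.09, 2.19 and 3.61 CPM in Flox and 2.06, 3.03 and 2.05 CPM in F4MKO + FSTL1. Of 44 tested acute phase and complement genes, 3 were higher and 6 lower at an unadjusted p under 0.05, with a median of -0.05. Without F4MKO + FSTL1 library 3, 10 were lower, and without Flox library 2, 1 was higher. The 4 that DESeq2 called lower included the complement genes C1qb and C1qc, which macrophages express, at a log2 fold change of -0.73 each (SE 0.18). C2 had 1.87, 9.39 and 7.18 CPM in Flox and 1.45, 1.54 and 1.69 CPM in F4MKO + FSTL1 (log2 fold change -1.98, SE 0.56), and neither tool called it.

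**Figure D3:**
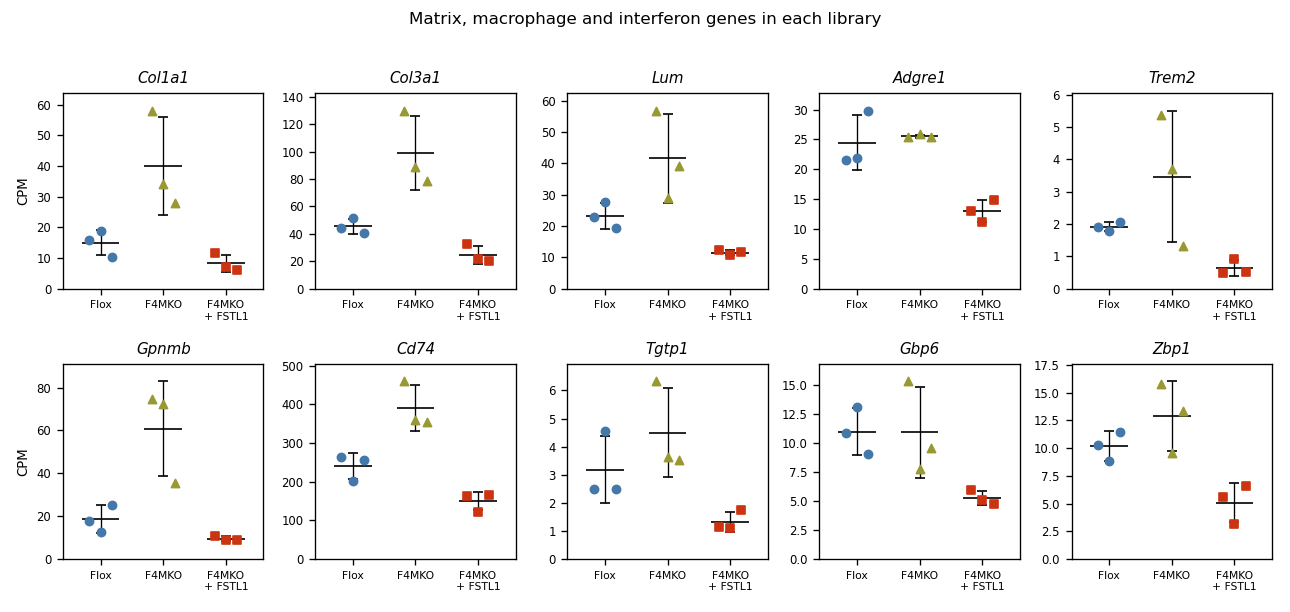
CPM of 10 matrix, macrophage, antigen presentation and interferon-stimulated genes in each of the 9 libraries, 1 point per mouse, with the mean as a line and the SD as a bar, and each axis starting at 0. Flox and F4MKO + FSTL1 mice overlap for Col1a1 alone, as most of the other genes were picked among genes without overlap. The mean of F4MKO + FSTL1 is the lowest in every panel.

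Markers of other cell types moved in part with these groups. The 12 tested markers of B and plasma cells had a median log2 fold change of -0.56, with 5 lower and none higher at an unadjusted p under 0.05, and DESeq2 called none. The 11 tested T and NK cell markers had a median of -0.37, and none was past an unadjusted p of 0.05 in edgeR or called by DESeq2. Without F4MKO + FSTL1 library 3 the medians were -1.03 and -0.90, and 4 T and NK cell markers were then lower at an unadjusted p under 0.05. With any other library left out the B cell median lay between -0.64 and -0.43, with 1 to 5 members lower (1 without F4MKO + FSTL1 library 1, 2 without F4MKO + FSTL1 library 2, Flox library 2 or Flox library 3, and 3 without Flox library 1). The T and NK cell median was -0.05 without Flox library 1, -0.21 without Flox library 2, -0.16 without F4MKO + FSTL1 library 2 and -0.19 without F4MKO + FSTL1 library 1. The 20 tested endothelial markers had a median of -0.11, and for 13 of them the interval lay within 1.5-fold, against 58.9% of all genes. Icam1, an adhesion molecule that inflamed endothelium and other cells display, had 29.4, 25.1 and 32.1 CPM in Flox and 14.7, 15 and 19.4 CPM in F4MKO + FSTL1 (log2 fold change -0.82, SE 0.16, DESeq2 adjusted p = 0.00189). The 12 tested cholangiocyte markers were all lower in value, with a median of -0.47 and 2 lower at an unadjusted p under 0.05, among them Krt19 (2.32, 2.36 and 2.38 CPM in Flox, 1.17, 1.39 and 1.38 CPM in F4MKO + FSTL1). Of the neutrophil markers 3 were tested, and 1, Csf3r, was lower without overlap. Of the 31 hepatocyte markers 24 were higher in value, 6 were higher and 1 lower at an unadjusted p under 0.05, 20 lay within 1.5-fold, and the median was 0.16. The count of 6 was 0 without Flox library 2 and between 1 and 3 without Flox library 3, F4MKO library 2 or any 1 F4MKO + FSTL1 library. The 6 tested erythroid markers were all higher in value (median 0.70). Hba-a1 had 70.3, 59.5 and 95.5 CPM in Flox and 116, 98.0 and 205 CPM in F4MKO + FSTL1, and its log2 fold change was 0.89 with library 3 of that group and 0.50 without it. The hemoglobin genes are near-identical copies, and the division of reads between them is uncertain. Skeletal muscle and pancreas or gut markers were low, with 2 tested members each and none at an unadjusted p under 0.05 in edgeR or called by DESeq2. Whether shifts in these cell types account for any of the group differences was not tested.

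Among the genes with higher values, 2 were adipocyte and lipid droplet genes with a wide spread. Cfd, which encodes the secreted protease adipsin, had 3.57, 0.620 and 0.352 CPM in Flox and 65.5, 42.4 and 4.56 CPM in F4MKO + FSTL1 livers. The groups did not overlap, and the lowest F4MKO + FSTL1 mouse was close to the highest Flox mouse (log2 fold change 4.64, SE 0.90, edgeR adjusted p = 0.0670, DESeq2 adjusted p = 0.00699). Cidea, which enlarges lipid droplets, had 0.669, 0.248 and 0.132 CPM in Flox and 6.09, 2.93 and 0.870 CPM in F4MKO + FSTL1, in the same order of mice (log2 fold change 3.23, SE 0.73, DESeq2 adjusted p = 0.000741). Leaving out single libraries moved the log2 fold change of Cfd from 3.97 (without F4MKO + FSTL1 library 1) to 6.24 (without Flox library 1), and that of Cidea from 2.45 to 4.07 for the same libraries. Defining markers of fat cells were at or near 0. Adipoq had at most 2 counts in any library, Plin1 and Lep had none in these 6 libraries, and Retn had at most 4. Of 12 adipocyte markers 6 were tested, all higher in value (median 0.40), with 3 higher at an unadjusted p under 0.05 and 2, Cfd and Cidea, called by DESeq2. Without Car3, which hepatocytes also express, the list summed to between 43.6 and 49.9 CPM in Flox and to 123, 95.8 and 49.7 CPM in F4MKO + FSTL1 libraries.

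Fitm1, which takes part in the formation of lipid droplets, had a smaller and tighter difference. It had 9.45, 4.55 and 8.02 CPM in Flox, 8.17, 7.67 and 10.3 CPM in F4MKO and 30.8, 23.7 and 19.2 CPM in F4MKO + FSTL1 livers. Every F4MKO + FSTL1 mouse was well above the other 6 (log2 fold change against Flox 1.75, SE 0.25, edgeR adjusted p = 0.0564, DESeq2 adjusted p = 2.1e-08). Of the 17 lipid droplet genes, all tested, 4 were higher and 1 lower at an unadjusted p under 0.05, the median log2 fold change was 0.09, and DESeq2 called Fitm1 and Cidea. The hormone-sensitive lipase gene Lipe had a log2 fold change of 0.47 (SE 0.16), and the coat protein gene Plin3 one of -0.26 (SE 0.09), neither of them called.

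The predicted gene Gm31121 had the highest fitted value of all genes. It had 0.223, 0.0827 and 0.0881 CPM in Flox and 7.35, 3.07 and 1.69 CPM in F4MKO + FSTL1 (log2 fold change 4.91, SE 0.78, DESeq2 adjusted p = 0.0018), and it passed the filter through the latter group alone. Dct, known as a melanin synthesis enzyme, and the predicted gene Gm13773 were also called higher by DESeq2, with log2 fold changes of 2.38 and 2.05 at levels of at most 3.04 CPM. Gm10804 was not called (1.78, SE 0.56). Outside the lists, the lowest genes were Shc2, a signalling adaptor, Nipal1, a magnesium transporter, and Cib3, a calcium-binding protein. Shc2 had 6.33, 6.62 and 3.22 CPM in Flox, 14.9, 8.98 and 7.60 CPM in F4MKO and 0.562, 0.336 and 1.28 CPM in F4MKO + FSTL1 (log2 fold change -2.90, SE 0.46, edgeR adjusted p = 0.0564, DESeq2 adjusted p = 2.1e-08). Its 3 F4MKO + FSTL1 values lay below all 6 others. Cib3 was called lower by DESeq2 (log2 fold change -1.98, SE 0.36) and Nipal1 was not (-2.87, SE 0.76).

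Cytochrome P450 genes of families 1 to 3 oxidise drugs and lipids. Of 39 tested, 7 were higher at an unadjusted p under 0.05, against 3.82% of all genes. At the same p 3 were lower, which is no more than the 9.55% of all genes. DESeq2 called 4 higher and 2 lower. Without Flox library 2, 4 were higher. Cyp2c54 had 64.3, 63.0 and 82.2 CPM in Flox, 28.1, 26.9 and 36.3 CPM in F4MKO and 225, 149 and 162 CPM in F4MKO + FSTL1 livers. The 3 groups were apart, and the lowest DESeq2 adjusted p of the comparison belonged to this gene (1.31e-09, log2 fold change against Flox 1.36, SE 0.18, edgeR adjusted p = 0.0564). Its neighbour in the same cluster Cyp2c50 had 287, 263 and 268 CPM in Flox and 689, 429 and 450 CPM in F4MKO + FSTL1 (log2 fold change 0.94, SE 0.20, DESeq2 adjusted p = 0.000741). Cyp2c genes are close in sequence, and how reads that fit several of them were assigned is not given in the sources used here. Cyp2c55 had a log2 fold change of -1.16 (SE 0.29) and was called lower by DESeq2, and Cyp3a16 had one of -1.21 (SE 0.37) and was not. The other gene that DESeq2 called lower, Cyp3a11, was chosen after its values were seen. It had 7711, 8054 and 6536 CPM in Flox and 4144, 3534 and 4721 CPM in F4MKO + FSTL1 (log2 fold change -0.85, SE 0.19).

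Cyp2e1, a pericentral enzyme of ethanol and fatty acid oxidation, had 7200, 7837 and 7372 CPM in Flox, 4465, 5128 and 7079 CPM in F4MKO and 13541, 11492 and 11118 CPM in F4MKO + FSTL1 livers. The F4MKO + FSTL1 mice were above all others (log2 fold change against Flox 0.69, SE 0.17, edgeR adjusted p = 0.124, DESeq2 adjusted p = 0.00243). Among 17 tested pericentral genes, 3 were higher and 1 lower at an unadjusted p under 0.05, and the median log2 fold change was 0.07. Oat, another pericentral gene, had 287, 299 and 365 CPM in Flox and 797, 393 and 409 CPM in F4MKO + FSTL1, and its log2 fold change of 0.75 dropped to 0.35 without library 1 of the latter group. Of 22 periportal genes of the urea cycle and gluconeogenesis, 2 were lower and none higher at an unadjusted p under 0.05, and Hsd17b6 (log2 fold change -0.66, SE 0.20) was called lower by DESeq2. The share of lower periportal genes was near the 9.55% of all genes.

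Male-biased liver genes, which in mice follow the pulses of growth hormone, were higher in value in F4MKO + FSTL1 livers. Of 19 tested major urinary protein (Mup) genes, which encode secreted pheromone carriers, 10 were higher and none lower at an unadjusted p under 0.05, 11 were higher without overlap, and the median log2 fold change was 1.05. DESeq2 called 1, Mup10 (70.6, 60.2 and 26.7 CPM in Flox, 139, 121 and 262 CPM in F4MKO + FSTL1). Mup7 had 1264, 656 and 1868 CPM in Flox, 192, 6.83 and 260 CPM in F4MKO and 3642, 5783 and 5114 CPM in F4MKO + FSTL1 livers. The 3 groups were apart, and the spread within groups was wide (log2 fold change against Flox 1.94, SE 0.83, edgeR adjusted p = 0.339). Mup17 and Mup1 had log2 fold changes of 1.84 (SE 0.70) and 1.71 (SE 0.56). Mup genes are near-identical copies in 1 cluster, so the share of each copy is uncertain and the members are not independent of one another. Among 17 other male-biased genes tested, 5 were higher and none lower at an unadjusted p under 0.05 (median 0.43). Hsd3b5, a steroid dehydrogenase, had 14.6, 11.0 and 39.2 CPM in Flox, 4.69, 0.126 and 0.603 CPM in F4MKO and 76.0, 155 and 49.8 CPM in F4MKO + FSTL1 (log2 fold change 2.12, SE 0.67, edgeR adjusted p = 0.192), and neither tool called it. The labels do not give the sex of the mice, and all 9 livers had at most 3 counts of Xist and at least 850 of the Y-linked gene Ddx3y. Of 20 female-biased genes 7 were tested, and 1 was lower and none higher at an unadjusted p under 0.05. Over the 59 tested genes that are male-biased, female-biased or of the growth hormone axis, 17 were higher and the median was 0.38. Without Flox library 2 these were 5 and 0.20, and the count was 9 without F4MKO + FSTL1 library 2, 10 without F4MKO + FSTL1 library 3 and 11 without Flox library 1.

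Over 16 tested genes of the growth hormone axis itself the median was -0.17, with 2 higher and 1 lower at an unadjusted p under 0.05. The lower one was Igfbp1, a secreted binding protein of insulin-like growth factors that insulin represses, chosen after its values were seen. It had 106, 186 and 113 CPM in Flox, 135, 122 and 120 CPM in F4MKO and 54.7, 30.0 and 61.0 CPM in F4MKO + FSTL1. The last group was below the other 2 (log2 fold change against Flox -1.47, SE 0.26, edgeR adjusted p = 0.0610, DESeq2 adjusted p = 0.000132).

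Of 21 tested circadian clock genes, 9 were higher at an unadjusted p under 0.05, against 3.82% of all genes. At the same p 3 were lower, against 9.55% of all genes. DESeq2 called 3 higher and 1 lower. Arntl, which encodes the activator BMAL1, had 13.8, 8.69 and 5.07 CPM in Flox and 3.14, 2.79 and 3.07 CPM in F4MKO + FSTL1 livers (log2 fold change -1.61, SE 0.33, DESeq2 adjusted p = 0.000312). Its partner Npas2 had a log2 fold change of -1.62 (SE 0.51). The positive limb, to which both belong, had 3 of 8 genes lower and 3 higher at an unadjusted p under 0.05. Among 13 genes of the negative limb and its outputs, 6 were higher and none lower at an unadjusted p under 0.05, with a median of 0.64. The repressor gene Bhlhe41 had 3.61, 4.67 and 6.43 CPM in Flox and 10.7, 13.4 and 11.2 CPM in F4MKO + FSTL1 (log2 fold change 1.26, SE 0.30, DESeq2 adjusted p = 0.00356). The output gene Dbp had 24.3, 44.0 and 65.0 CPM in Flox and 96.4, 111 and 79.2 CPM in F4MKO + FSTL1 (log2 fold change 1.10, SE 0.38). The 3 Flox mice differed among themselves in Arntl and Dbp in opposite order, and the F4MKO mice had 12.5, 10.1 and 7.12 CPM of Arntl and 21.4, 35.4 and 62.8 CPM of Dbp. The labels give no time of day for the collection of the livers, and its part in these values was not tested.

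**Figure D4:**
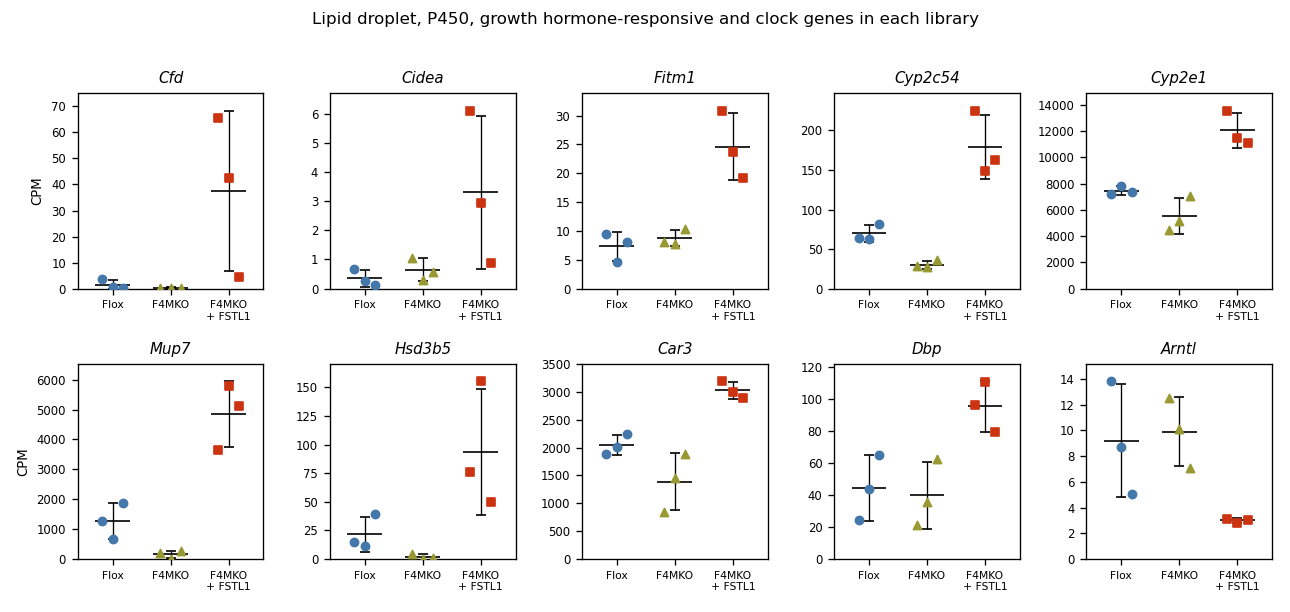
CPM of 10 lipid droplet, cytochrome P450, male-biased and clock genes in each of the 9 libraries, 1 point per mouse, with the mean as a line and the SD as a bar, and each axis starting at 0. Values are higher in F4MKO + FSTL1 than in Flox mice in all panels except that of Arntl, and the 3 mice spread widely for Cfd, Cidea and Hsd3b5.

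Of 27 genes of de novo lipogenesis, 6 were lower and none higher at an unadjusted p under 0.05, the median log2 fold change was -0.04, and 15 lay within 1.5-fold. Over all genes 9.55% were lower at that p and 58.9% lay within 1.5-fold. DESeq2 called Fasn and Scd2 lower. Fatty acid synthase (Fasn) had 432, 399 and 349 CPM in Flox and 313, 226 and 191 CPM in F4MKO + FSTL1 (log2 fold change -0.69, SE 0.21, edgeR adjusted p = 0.171, DESeq2 adjusted p = 0.0423). The other enzymes of the route to fatty acids, Acly and Acaca, had log2 fold changes of -0.44 each (SE 0.12), below the fold threshold. Scd1, the main liver desaturase, had 18921, 15413 and 12305 CPM in Flox and 18658, 14387 and 12475 CPM in F4MKO + FSTL1, with an interval of -0.48 to 0.41. Of the 24 tested cholesterol synthesis genes, 2 were higher and 1 lower at an unadjusted p under 0.05, with Ebp, a sterol isomerase, at a log2 fold change of 0.27 (SE 0.11).

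Of 44 tested targets of PPAR-alpha and genes of fatty acid oxidation, 3 were higher and 1 lower at an unadjusted p under 0.05, the median log2 fold change was 0.09, and 23 lay within 1.5-fold. The shares over all genes were 3.82% higher, 9.55% lower and 58.9% within 1.5-fold. The number of higher genes ran from 0 (without F4MKO + FSTL1 library 1) and 1 (without Flox library 3) to 6 (without F4MKO library 3) and 8 (without F4MKO library 1). The fatty acid transporter gene Slc27a2 and the mitochondrial carnitine transferase gene Cpt1a had log2 fold changes of 0.35 and 0.31, and neither tool called them. Pdk4, which restrains the use of glucose, had 9.36, 9.68 and 6.26 CPM in Flox and 3.93, 3.70 and 5.12 CPM in F4MKO + FSTL1 (log2 fold change -0.99, SE 0.25, DESeq2 adjusted p = 0.0140). None of 25 bile acid genes was past an unadjusted p of 0.05 in edgeR or called by DESeq2, and 16 lay within 1.5-fold. Of 24 genes of glucose and fructose handling, 5 were lower and 1, the glycogen synthase gene Gys2, was higher at an unadjusted p under 0.05, and 18 lay within 1.5-fold. Between 0 and 3 were lower without Flox library 1, Flox library 3 or any 1 F4MKO + FSTL1 library.

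Of 75 tested nuclear-encoded respiratory chain genes, 74 lay within 1.5-fold and the median was 0.04, with 1, Uqcrc1, higher at an unadjusted p under 0.05 (0.62, SE 0.26). Of 75 cytosolic ribosomal protein genes, 74 lay within 1.5-fold, the median was 0.03, and none was past an unadjusted p of 0.05 in edgeR or called by DESeq2. The 13 mitochondrially encoded genes had a median of 0.19, with 8 within 1.5-fold. The groups did not overlap for 5 higher and 1 lower of them, and 1, ATP8, was lower at an unadjusted p under 0.05 (-0.95, SE 0.37). Among 29 genes of the ER stress and integrated stress response, 1, Atf3, was lower at an unadjusted p under 0.05 (log2 fold change -0.82, SE 0.30). Of 20 immediate early genes 4 were lower, among them Egr1 (34.3, 14.8 and 14.5 CPM in Flox, 7.73, 7.68 and 6.76 CPM in F4MKO + FSTL1, log2 fold change -1.52). The log2 fold change of Egr1 was -0.99 without Flox library 1, which was the highest.

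Of 43 tested NRF2 targets and phase II enzymes, 5 were higher and 5 lower at an unadjusted p under 0.05, and 17 lay within 1.5-fold. Without F4MKO + FSTL1 library 1 these counts were 3 and 9, and the higher genes were 1 without Flox library 2, 2 without Flox library 1 and 3 without F4MKO + FSTL1 library 3. The glutathione transferase genes Gsta1, Gsta2 and Gsta4 were called lower by DESeq2, with log2 fold changes of -1.58 (SE 0.34), -0.61 (SE 0.15) and -0.80 (SE 0.20). Gsta1 had 9.50, 10.3 and 7.80 CPM in Flox, 14.7, 21.4 and 21.1 CPM in F4MKO and 3.04, 1.25 and 4.97 CPM in F4MKO + FSTL1 livers, so the F4MKO + FSTL1 mice were below both other groups. Gsta1 and Gsta2 are near-identical copies, and the division of reads between them is uncertain. The sulfotransferase gene Sult5a1 had a log2 fold change of 0.87 (SE 0.32) and no call.

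Liver Fstl1 was lower in value in F4MKO + FSTL1 than in Flox mice. It had 6.15, 7.69 and 6.48 CPM in Flox, 16.2, 9.87 and 11.4 CPM in F4MKO and 5.34, 3.22 and 4.25 CPM in F4MKO + FSTL1 livers. The F4MKO + FSTL1 mice were below the Flox mice (log2 fold change -0.67, SE 0.23, edgeR adjusted p = 0.221), and neither tool called the gene. Follistatin (Fst), a related secreted binder of activins, had 15.3, 4.92 and 3.83 CPM in Flox and 1.17, 3.70 and 2.05 CPM in F4MKO + FSTL1, and its log2 fold change of -1.79 was -0.93 without Flox library 1. Of the receptors that the study considered for FSTL1, Dip2a had a log2 fold change of -0.45 (95% interval -0.98 to 0.08), Tlr4 one of -0.32 (-0.74 to 0.09) and its co-receptor Cd14 one of -0.75 (-1.33 to -0.17). The receptor genes Bmpr1a, Bmpr2, Tgfbr1, Tgfbr2 and Eng had intervals within 1.5-fold. The activin receptor genes Acvr1, Acvr2a and Acvr2b were added to the list here and are not among the receptors that the study names, while Fzd4, for which the study lists primers, was left off it (log2 fold change 0.40, SE 0.18). The study also gives primers labelled Tgfb3 among those of receptors, and neither Tgfb3 nor Tgfbr3 is on this list. None of the 13 tested genes of the list was called by edgeR or DESeq2, while 1, Acvr2b, was higher and 3 were lower at an unadjusted p under 0.05.

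Genes that the study measured in liver by other assays were listed separately. They were chosen by the study for this model and are no independent evidence of a direction. Of the 18 tested, 1 was higher and 9 lower at an unadjusted p under 0.05, with a median log2 fold change of -0.45, and DESeq2 called Adgre1, Fasn and Col1a2 lower. Timp2, an inhibitor of matrix proteases, had 25.5, 29.6 and 25.4 CPM in Flox and 22.5, 18.3 and 17.8 CPM in F4MKO + FSTL1 (log2 fold change -0.46, SE 0.14), and Tgfb1 had a log2 fold change of -0.36 (SE 0.14). Srebf1, Nr1h3 and Acat2 had intervals within 1.5-fold. The study's text names Acat2 among its fibrosis genes, while its primer list gives Acta2 and no Acat2. Acat2 was kept on this list, although the study may not have measured it. Among 14 tested markers of fetal liver and carcinoma, 7 were lower and none higher at an unadjusted p under 0.05 (4 without Flox library 1 or F4MKO + FSTL1 library 2), and DESeq2 called 4 lower. Ly6d had 26.7, 21.9 and 20.1 CPM in Flox, 127, 76.1 and 68.8 CPM in F4MKO and 6.88, 4.80 and 11.0 CPM in F4MKO + FSTL1 livers, with no overlap among the 3 groups (log2 fold change against Flox -1.60, SE 0.29, edgeR adjusted p = 0.0666). The Golgi protein gene Golm1 had a log2 fold change of -1.12 (SE 0.19, edgeR adjusted p = 0.0581).

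**Figure D5:**
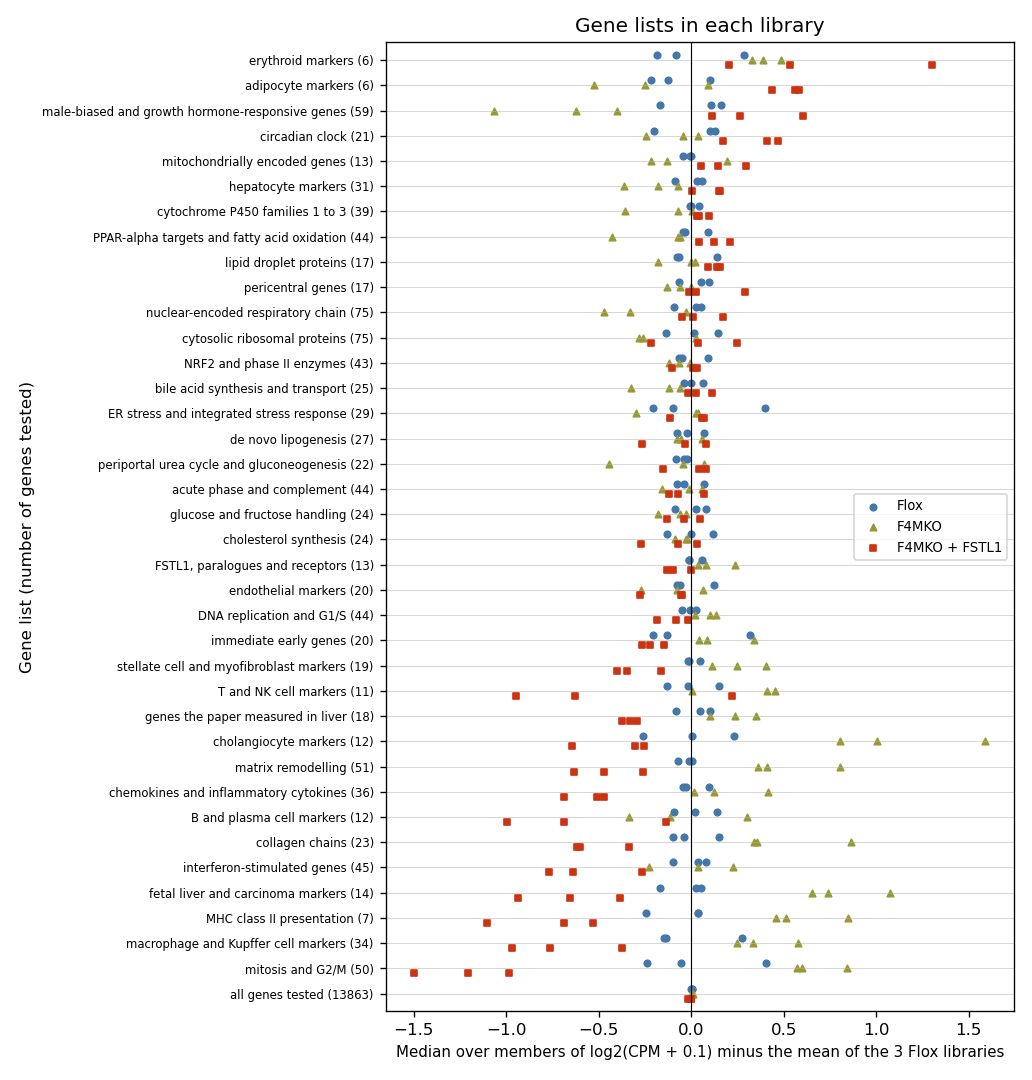
Median over the tested members of each list of log2(CPM + 0.1) minus the mean of the 3 Flox libraries, 1 point per library, with the number of tested members in brackets. For mitosis genes, of which 16 of 50 passed the filter through Flox alone, the F4MKO + FSTL1 libraries lie at -1.21, -1.5 and -0.98, and for the respiratory chain at -0.05, 0.01 and 0.17.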

How the data were processed

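The authors sequenced liver RNA (BGIseq500, paired-end), trimmed reads with Trim Galore 0.6.7, mapped them to mm10 with HISAT2 2.2.1 and deposited featureCounts 2.0.1 counts per gene, neither normalized nor filtered. The annotation, the use of strand and the treatment of reads that fit several genes are not given in the sources used here. Of the deposited gene symbols, 25 are date-like, as spreadsheets make them.

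In R 4.3.3, edgeR 4.0.16 fitted a quasi-likelihood model with a mean per group to all 9 libraries (20656976 to 24322984 counts) after TMM normalization, on genes with at least 10 counts in at least 3 of the 6 libraries compared. A gene was called at a Benjamini-Hochberg adjusted p under 0.05 over all tested genes and a fold change above 1.5, the study's threshold. The SE is the log2 fold change divided by the square root of F, and 95% intervals use the fit's degrees of freedom. DESeq2 1.42.0 was run beside it. Replicates are separate mice, 3 per group. A gene with at most 3 counts in each library of a group was taken as at the floor.

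Named genes are those called, the 12 lowest and 12 highest among non-overlapping genes at an unadjusted p under 0.05 and a mean of at least 1 CPM, up to 4 such members per list, and the genes of the lists on FSTL1 and on the study's liver measurements. The 40 lists hold 1171 distinct genes, of which 1142 are in the table and 1021 were tested. Members and lists were chosen with earlier results of these data known. The main edgeR fit and the DESeq2 fit were run on simulated data, and the other fits were not. The alternatives were DESeq2 and its size factors in edgeR, other filters, 6 libraries, a replicate block, single libraries left out, no fold threshold, a test against 1.5-fold and, for lists, members of at least 1 CPM. An adjusted p under 0.1 and DESeq2 on 6 libraries were added after seeing the data.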

Additional observations from a re-analysis of the deposited data

How the results depend on the processing

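The single call of edgeR depended on the processing. With DESeq2's size factors 0 genes were called (lowest adjusted p 0.051, 1871 genes at an unadjusted p under 0.05), with only the 6 libraries 0 (0.0964, 1863), and in a test against a fold change of 1.5 also 0 (0.0975, 345). Without a filter beyond 1 count 207 of 22819 genes were called, at an adjusted p under 0.1 142, by DESeq2 283, and by DESeq2 on the 6 libraries 269. With edgeR's own filter, and without a fold threshold, 1 gene was called. Leaving out 1 library gave between 0 and 106 calls, with 106 without F4MKO + FSTL1 library 3, 11 without Flox library 3 and 5 without F4MKO library 2. The replicate block gave 66 calls (10 higher, 56 lower). Same-numbered libraries come from different mice, and their deviations had correlations of 0.00653, -0.0878 and 0.237. With 3 mice a group, these values cannot decide whether equal numbers mark a shared batch.

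Genes at an unadjusted p under 0.05 numbered 1216 (without F4MKO + FSTL1 library 2) to 2014 with 1 library left out, and genes within 1.5-fold 7327 to 8227. The log2 fold change of Ccnb1 stayed between -3.34 and -2.96 wherever it was tested. It lost its call with DESeq2's size factors, the 6 libraries, or without F4MKO library 1 or 3 or F4MKO + FSTL1 library 1 or 2 (adjusted p 0.051 to 0.182), and without any 1 Flox library it had too few counts to be tested. Over 147 named genes and all alternatives, 2172 values were computed, of which 163 gained a call and 6 lost one. Ccnb1 was the only gene with a call to lose. No sign changed for a gene at an unadjusted p under 0.05 in the main fit or called in the alternative. The sign changed for 9 genes, among them Slc10a2 (-0.56 without F4MKO + FSTL1 library 1 to 0.87 without library 2). Another was Acta2 (-0.64 without F4MKO + FSTL1 library 3 to 0.10 without library 2). Of 640 list medians 21 moved by more than the spread between replicates, and those of 8 lists near 0 changed sign. The median of all tested mitosis genes, -1.38, was -0.83 without Flox library 2 and -1.01 without Flox library 3, where fewer members passed the filter. With 3 mice a group and levels of a few counts, small changes were not detectable.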
